A study of Mus musculus with 20 samples.

Results

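The enzymes described here are the phase II conjugating enzymes of mouse liver: the glutathione S-transferases (GST), the UDP-glucuronosyltransferases (UGT) and the sulfotransferases (SULT). A probe set, which is the group of array probes that reports 1 transcript, was taken when it was annotated to exactly 1 gene and that gene's symbol began with Gsta, Gstm, Gstp, Gstt, Gstk, Gsto, Gstz, Mgst, Ugt1, Ugt2, Ugt3 or Sult. This took 49 probe sets. Of these, 48 had values, 1 for each of 48 genes, out of 25689 probe sets with values in all. The second probe set of *Gstm3* had none. No filter on low values was used, so all 48 were tested. The GSTs had 22 probe sets: alpha 2, mu 7, pi 2, theta 4, kappa 1, omega 2, zeta 1 and microsomal 3. The UGTs had 10, with 8 of the UGT2 family, 2 of the UGT3 family and 0 of the UGT1 family. The SULTs had 16. A further 12 probe sets with family names were annotated to several genes and are left out, among them those of Ugt1a and of *Gsta1* with *Gsta2*. Near-identical family members can share probe sequence, and how far a probe set also reports its copies was not assessed.

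The 3 classes attach different groups to drugs, steroids, bile acids and reactive metabolites. GSTs transfer glutathione to electrophiles, UGTs transfer glucuronic acid from UDP-glucuronate, and SULTs transfer sulfate from the donor PAPS. The products are more soluble in water and leave the hepatocyte through transporters into bile or blood. Many of these genes are targets of the xenobiotic receptors CAR and PXR, of NRF2 or of PAR bZIP factors, which are themselves under clock control, and several differ in level between male and female livers.

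Whole livers of wild-type (WT) and *Crem* knock-out (KO, *Crem*-/-) mice were measured on Affymetrix GeneChip Mouse Gene 1.0 ST arrays. *Crem* encodes a family of transcription factors that bind cAMP response elements, and the KO lacked it constitutively in all cells. The 20 mice were 8 weeks old, on a mixed background (129Pas x C57Bl/J in the labels), untreated and with free food and water, and were killed at light onset (0 h) or at light end (12 h). Each of the 4 groups (WT 0 h, KO 0 h, WT 12 h, KO 12 h) had 5 mice, 1 array per mouse, and no mouse was sampled at both times.

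The hepatocyte marker *Alb* (albumin) had a mean log2 value of 14.26 to 14.31 over the 4 groups, and 8 hepatocyte markers averaged 13.47 to 13.6 in single mice. Array medians were 7.18 to 7.24 in WT and 7.19 to 7.23 in KO at 0 h, and 7.07 to 7.15 in WT and 7.13 to 7.17 in KO at 12 h. *Crem* read 7.43, 7.69, 7.87, 8.07 and 8.17 in KO mice at 0 h against 8.11 to 8.54 in WT, and 7.39 to 7.83 in KO against 7.90 to 8.02 in WT at 12 h. The groups overlapped at 0 h, since the array labelled KO mouse 1 (8.17) lay above WT mouse 80 (8.11), and did not overlap at 12 h. The KO minus WT difference in *Crem* was -0.48 at 0 h (two-sided exact permutation test, p = 0.0159) and -0.37 at 12 h (p = 0.00794, the smallest that 5 against 5 mice can give). Without KO mouse 1 the 0 h difference was -0.56 (exact p = 0.00794). In limma over all probe sets *Crem* did not pass for genotype, with an adjusted p of 0.987 at 0 h, 0.19 at 12 h and 0.135 over both times. Whether this probe set lies in the deleted part of the gene is not given. The study's list of testis RNA gives number 1 to a pre-pubertal WT mouse. That list holds none of the 12 h liver mice, so it cannot settle what the array labelled KO mouse 1 holds, which stays uncertain. The array is kept under its label, and the calls that its removal changes are given below.

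Time of day was compared first. Averaged over both genotypes, 20 of 48 members passed for time (41.7%), against 39.3% of all probe sets, so the share is near the background. The direction was mostly downward: 4 rose (8.33%) and 16 fell (33.3%) from light onset to light end, while 18.1% of all probe sets rose and 21.2% fell. The test was limma with a Benjamini-Hochberg adjusted p under 0.05 over all 25689 probe sets. With each array centred on its median the split was 8 up and 10 down. The 4 that rose were *Gstt3*, *Ugt2b34*, *Sult1c2* and *Sult1d1*. Those that fell were *Gsta3*, *Gstm2*, *Gstm4*, *Gstm5*, *Gstm6*, *Gstm7*, *Gstp1*, *Gstz1*, *Mgst1*, *Mgst3*, *Ugt2b1*, *Ugt2b36*, *Ugt2b5*, *Ugt3a2*, *Sult2a8* and *Sult4a1*.

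The families differed in direction as counts and medians. In the mu GSTs 5 of 7 members fell and 0 rose, with a median log2 change of -0.36 (-0.28 with centred arrays) beside -0.03 for all probe sets. Of the 3 microsomal GSTs 2 fell, with a median of -0.33. The 4 theta GSTs went the other way, with 1 passing and all 4 estimates positive (median 0.10). The UGT2 family had 1 rising and 3 falling members of 8 (median -0.16). The 16 SULTs had 2 rising and 2 falling members and a median of 0.005 that turned to -0.02 after quantile normalization. These are descriptions of the lists, and no test between families was run. Mean log2 values were 3.74 to 6.60 for *Sult1c1*, *Sult1e1*, *Sult2a3*, *Sult2a6*, *Sult2b1*, *Sult3a1*, *Sult3a2*, *Sult4a1*, *Sult6b1* and *Sult6b2*. All of these lay below every array median (7.07 to 7.24), as did those of *Gstt4*, *Gsto2* and *Mgst2*. How far such probe sets stood above background is unknown, so their small changes are not shown to be a family trait.

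**Figure D1:**
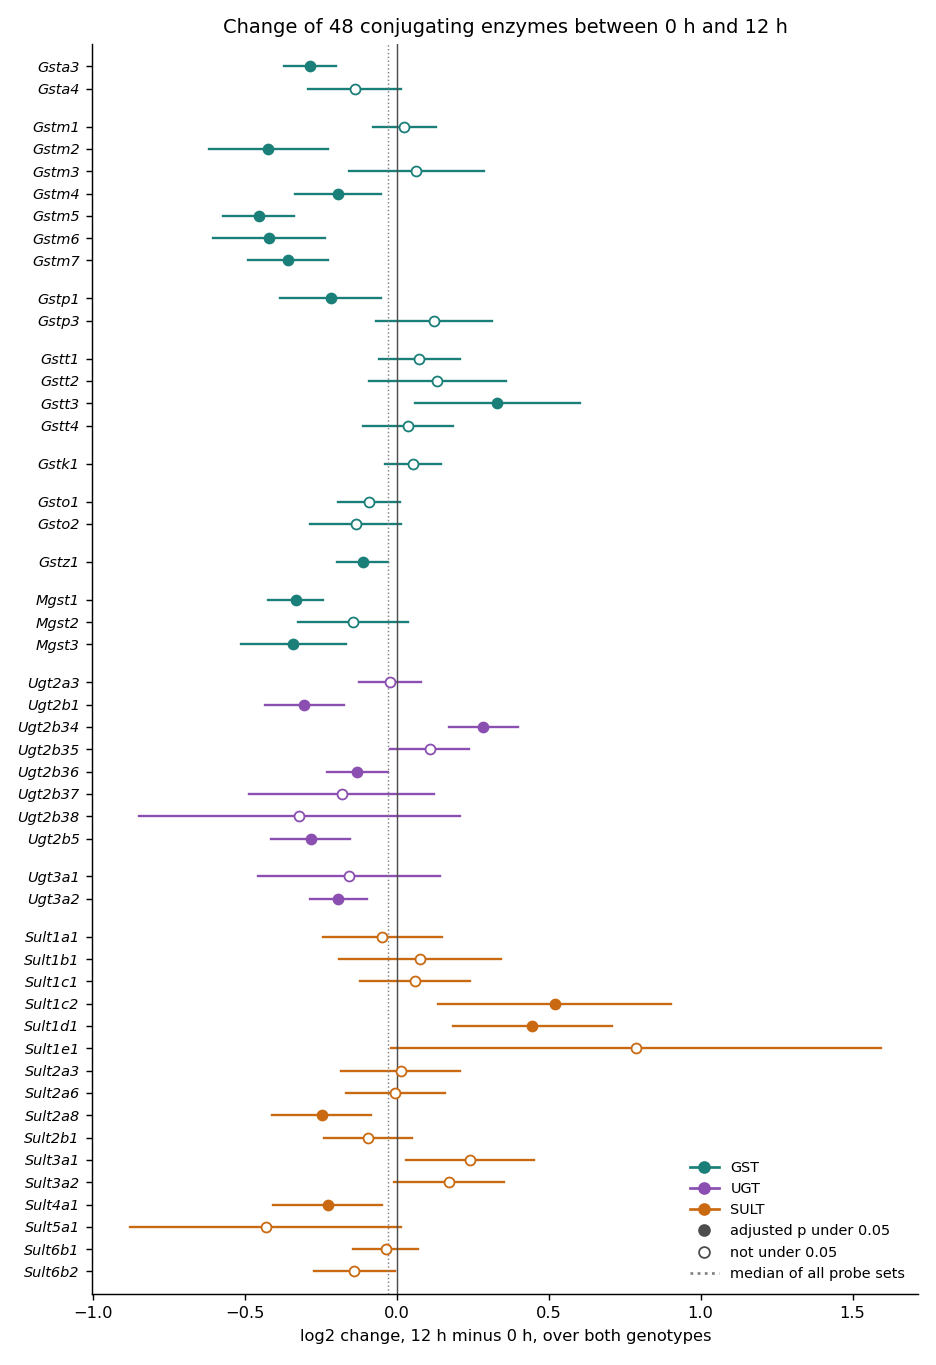
Log2 change from 0 h to 12 h averaged over WT and KO (x axis) for each of the 48 members, grouped by family (y axis); lines are 95% confidence intervals from 20 mice, filled points have a limma adjusted p under 0.05, and the dotted line is the median of all probe sets (-0.03). Filled points of the mu and microsomal GSTs all lie left of the line, while those of the SULTs lie on both sides.

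All 12 h livers carry 1 batch label and all 0 h livers carry the other 4, so time and batch cannot be told apart. In whole tissue, fewer cells of a type and less RNA per cell cannot be told apart either. Among the marker lists the Kupffer cell genes moved most evenly with time: 6 of 6 fell (median -0.38), and their summed level per mouse, as a mean log2 value over the 6 genes, was 9.61 to 9.91 in WT and 9.36 to 9.9 in KO at 0 h against 8.96 to 9.39 and 9.11 to 9.53 at 12 h. Hepatocyte markers had 2 rising and 2 falling of 8 (median -0.06), while 18.1% of all probe sets rose and 21.2% fell. Per-mouse levels of the hepatocyte markers were 13.51 to 13.6 and 13.52 to 13.58 at 0 h against 13.47 to 13.59 and 13.47 to 13.55 at 12 h. The part of these shifts in the members' changes was not tested.

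The mu GSTs are cytosolic enzymes encoded by neighbouring genes, and all 7 measured members lie next to each other in the RefSeq gene order with 0 other genes between them. *Gstm5* had the largest fall over both genotypes of the members that passed. *Gstm5* read 8.76, 8.77, 8.79, 8.80 and 9.08 in WT mice at 0 h and 8.33, 8.37, 8.38, 8.39 and 8.47 at 12 h. In KO the log2 values were 8.70, 8.89, 8.91, 8.95 and 8.98 at 0 h and 8.25, 8.38, 8.44, 8.44 and 8.66 at 12 h. In both genotypes every 12 h mouse was below every 0 h mouse. The log2 change was -0.45 in WT (SE 0.08, limma adjusted p = 2.38e-04) and -0.45 in KO (adjusted p = 2.62e-04). Over both it was -0.45 (95% interval -0.57 to -0.34, adjusted p = 1.58e-06).

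*Gstm2* read 9.15, 9.28, 9.56, 9.57 and 9.59 in WT at 0 h and 8.52, 8.91, 9.13, 9.24 and 9.37 at 12 h, and the groups overlapped. Values in KO were 9.29, 9.40, 9.49, 9.62 and 9.66 at 0 h and 8.79, 8.95, 9.05, 9.18 and 9.26 at 12 h, with no overlap. *Gstm2* fell by 0.40 in WT (adjusted p = 0.0302), by 0.45 in KO (adjusted p = 0.0198) and by 0.42 over both (SE 0.09, limma adjusted p = 0.00118). The WT call was kept in 15 of 20 runs that left out 1 mouse. It was lost without WT mouse 78, 111, 146, 147 or 168, where the change was -0.36, -0.27, -0.36, -0.35 and -0.37, and the KO call was lost without KO mouse 143 (-0.41) or 166 (-0.39). The WT call was also lost with centred arrays (-0.31) and with only the arrays compared (limma adjusted p = 0.0695).

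*Gstm6* and *Gstm7* passed in KO, and *Gstm7* was near the threshold in WT. *Gstm6* read 10.72, 10.77, 10.82, 10.90 and 10.91 in KO at 0 h and 9.94, 10.05, 10.17, 10.34 and 10.58 at 12 h, with no overlap. In WT the 0 h values of 10.47, 10.47, 10.82, 10.96 and 10.98 overlapped the 12 h values of 10.27, 10.40, 10.46, 10.56 and 10.85. Its log2 change was -0.61 in KO (adjusted p = 0.00113) and -0.23 in WT (adjusted p = 0.175). *Gstm7* read 10.85, 10.88, 10.96, 10.97 and 11.03 in KO at 0 h and 10.16, 10.40, 10.43, 10.64 and 10.67 at 12 h. In WT it read 10.79, 10.82, 10.83, 10.98 and 11.00 at 0 h and 10.48, 10.55, 10.65, 10.75 and 10.81 at 12 h. The KO times of *Gstm7* did not overlap and the WT times did, at 1 mouse. The change of *Gstm7* was -0.48 in KO (adjusted p = 4.67e-04) and -0.24 in WT (adjusted p = 0.0539). In WT it passed in limma after quantile normalization (-0.28, adjusted p = 0.023), among the bright probe sets (adjusted p = 0.0316), with a trended and robust prior (adjusted p = 0.0343) and with array weights (adjusted p = 0.0496), and without WT mouse 145 or 167 or KO mouse 55 or 166. The differences between the genotypes in these changes were -0.38 for *Gstm6* (limma adjusted p = 0.725) and -0.24 for *Gstm7* (adjusted p = 0.75), and neither passed. Of the other mu members *Gstm4* fell over both genotypes (-0.19, adjusted p = 0.0294), a call kept in 12 of 20 runs that left out 1 mouse and lost with centred arrays (-0.12), while *Gstm1* was at 0.03 (adjusted p = 0.718) and *Gstm3* at 0.06 (adjusted p = 0.664).

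**Figure D2:**
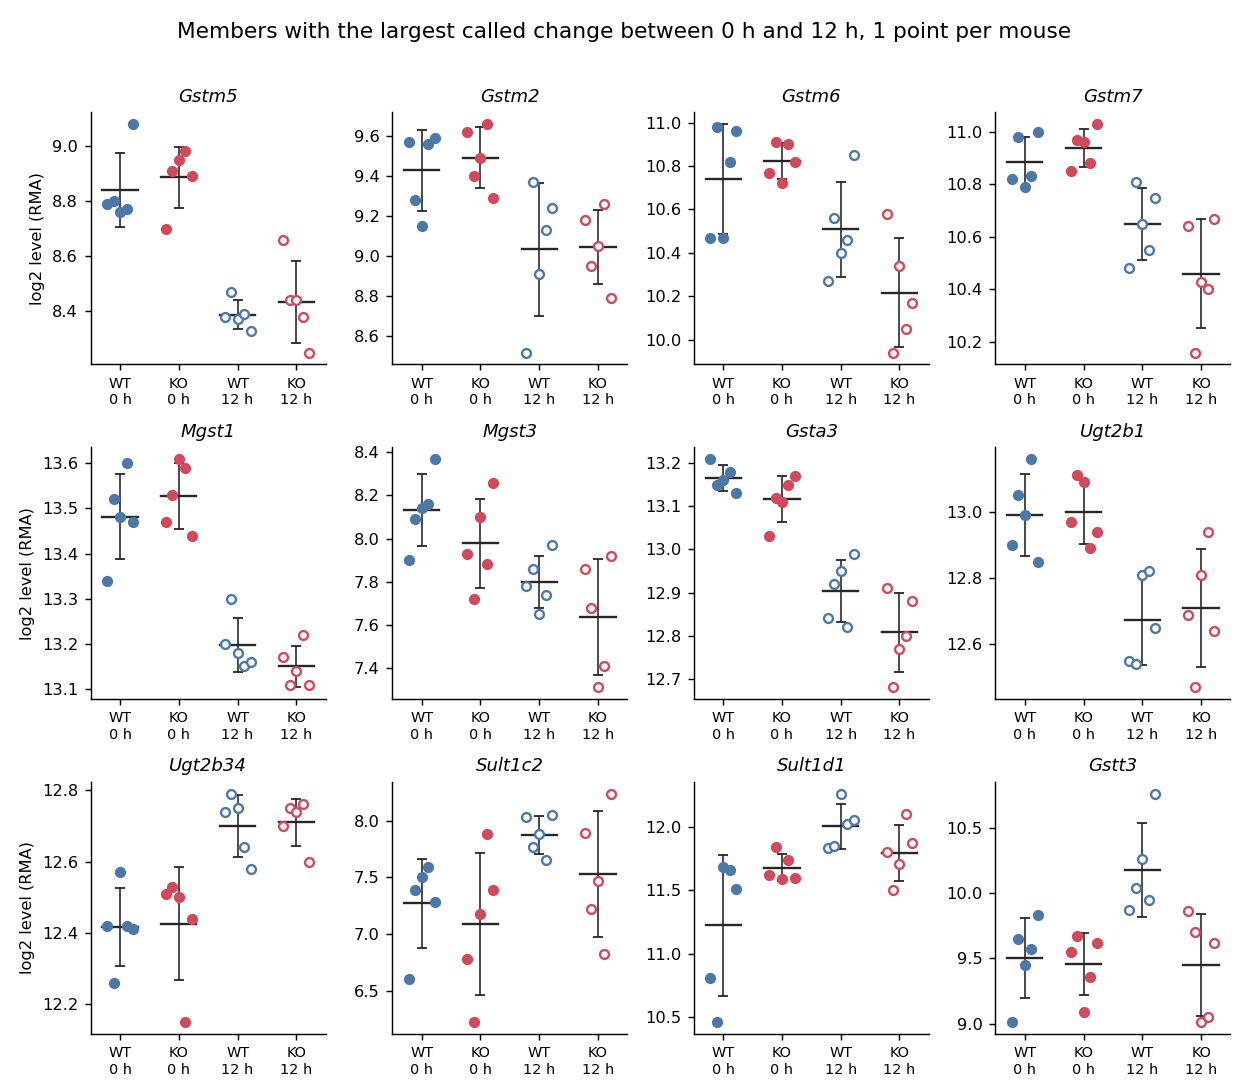
Log2 value (y axis) of 12 members in each mouse by group (x axis: WT and KO at 0 h and 12 h, 5 mice each); filled points are 0 h, open points 12 h, blue WT and red KO, the line is the group mean and the whiskers 1 SD. The 12 h points of *Gstm5*, *Mgst1* and *Gsta3* lie below and those of *Ugt2b34* above all 0 h points of the same genotype, whereas *Gstt3* separates in WT only.

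The microsomal GSTs are membrane proteins with transferase and peroxidase activity. *Mgst1* read 13.34, 13.47, 13.48, 13.52 and 13.60 in WT at 0 h and 13.15, 13.16, 13.18, 13.20 and 13.30 at 12 h. The KO mice read 13.44, 13.47, 13.53, 13.59 and 13.61 at 0 h and 13.11, 13.11, 13.14, 13.17 and 13.22 at 12 h. The times did not overlap in either genotype. *Mgst1* fell by 0.28 in WT (SE 0.06, adjusted p = 0.00163), by 0.38 in KO (adjusted p = 1.06e-04) and by 0.33 over both (limma adjusted p = 3.1e-06).

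*Mgst3* fell in both genotypes with overlapping groups. It read 7.90, 8.09, 8.14, 8.16 and 8.37 in WT at 0 h and 7.65, 7.74, 7.78, 7.86 and 7.97 at 12 h. The KO values were 7.72, 7.88, 7.93, 8.10 and 8.26 at 0 h and 7.31, 7.41, 7.68, 7.86 and 7.92 at 12 h. The change was -0.33 in WT (adjusted p = 0.0388), -0.34 in KO (adjusted p = 0.042) and -0.34 over both (SE 0.08, limma adjusted p = 0.0027). The WT call was lost without WT mouse 80, 111, 145, 146, 147, 168 or 169, with changes of -0.35 to -0.28, and the KO call without KO mouse 1, 55, 77, 109, 110 or 144, with changes of -0.36 to -0.26. Both calls were also lost with batch as a random block and with centred arrays (-0.25 in WT and -0.29 in KO). *Mgst2*, which can make leukotriene C4, was at -0.14 over both genotypes (adjusted p = 0.195).

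Of the alpha GSTs, *Gsta3*, a major liver enzyme that conjugates aflatoxin epoxide in mice, fell. *Gsta3* read 13.13, 13.15, 13.16, 13.18 and 13.21 in WT at 0 h and 12.82, 12.84, 12.92, 12.95 and 12.99 at 12 h. KO values of *Gsta3* were 13.03, 13.11, 13.12, 13.15 and 13.17 at 0 h and 12.68, 12.77, 12.80, 12.88 and 12.91 at 12 h. The times did not overlap in either genotype, and the SD within groups was 0.03 to 0.09. The log2 change was -0.26 in WT (SE 0.06, adjusted p = 0.00239), -0.31 in KO (adjusted p = 6.38e-04) and -0.28 over both (limma adjusted p = 1.42e-05). The calls of *Gstm5*, *Gsta3*, *Mgst1* and *Ugt2b34* in WT, in KO and over both were kept in each of the 20 runs that left out 1 mouse. *Gsta4*, which clears the lipid peroxidation product 4-hydroxynonenal, was at -0.14 over both (adjusted p = 0.146) and -0.21 in KO (adjusted p = 0.164). Without KO mouse 1 both passed in limma, at -0.18 (adjusted p = 0.0319) and -0.31 (adjusted p = 0.0299).

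The promoters of *Gstm5* and *Gsta3* are shown because both fell with no overlap of the times in either genotype. Each holds the core of the antioxidant response element (TGACNNNGC, searched on both strands), which NRF2 binds. A listed window of *Mgst1*, which fell in the same way, and a listed window of *Gstm7* also hold the core and are not shown. Each run is the 250 bases before the start of the gene in RefSeq (GRCm38.p6), 5′ to 3′ on the gene's strand, and capitals mark the match. The window of *Gstm5* is chr3:107895604-107895853 on the + strand, with the match from 42 to 34 bases before the start. That of *Gsta3* is chr1:21240335-21240584 on the + strand, with the match from 121 to 113 bases before the start.
Gstm5: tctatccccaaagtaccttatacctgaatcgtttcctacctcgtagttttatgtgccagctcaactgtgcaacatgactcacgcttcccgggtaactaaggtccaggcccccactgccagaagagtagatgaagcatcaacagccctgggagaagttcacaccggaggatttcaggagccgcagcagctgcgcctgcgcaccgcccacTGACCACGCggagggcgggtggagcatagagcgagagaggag
Gsta3: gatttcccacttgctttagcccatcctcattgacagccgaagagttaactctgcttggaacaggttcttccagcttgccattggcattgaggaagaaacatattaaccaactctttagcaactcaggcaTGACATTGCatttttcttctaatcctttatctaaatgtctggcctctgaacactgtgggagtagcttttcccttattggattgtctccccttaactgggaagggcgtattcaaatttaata
The core was in 3 of the 44 members with a window (6.82%), taking the first listed start of each gene, and in 10.1% of all 27025 genes. A match is a description of the letters and not of binding.

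The theta GSTs act on small halogenated compounds among others, and their 4 genes also lie side by side. *Gstt3* read 9.01, 9.45, 9.57, 9.65 and 9.83 in WT at 0 h and 9.87, 9.95, 10.04, 10.26 and 10.76 at 12 h. *Gstt3* in KO read 9.09, 9.36, 9.55, 9.62 and 9.67 at 0 h and 9.01, 9.05, 9.62, 9.70 and 9.86 at 12 h. All WT mice at 12 h were above all WT mice at 0 h, and the KO groups overlapped. *Gstt3* rose by 0.67 in WT (SE 0.18, adjusted p = 0.00967) and was at -0.01 in KO (adjusted p = 0.977). Over both genotypes the change was 0.33 (SE 0.13, limma adjusted p = 0.0493), a call kept in 8 of 20 runs that left out 1 mouse. The runs that lost it left out WT mouse 78, 80, 145, 146, 168 or 170 or KO mouse 1, 18, 55, 77, 143 or 166, and the change over all 20 runs was 0.26 to 0.39. The call was also lost with batch as a random block, after quantile normalization (0.28) and with array weights (0.30). A trended and robust prior lost it too, as did leaving out WT mice 80 and 170 (0.28). The other theta members were at 0.07 (*Gstt1*), 0.13 (*Gstt2*) and 0.04 (*Gstt4*), and none of these passed.

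Of the pi GSTs, *Gstp1* fell and *Gstp3* rose in WT, and neither passed in KO. *Gstp1*, the pi enzyme that is abundant in male mouse liver, read 13.67, 13.71, 13.74, 13.87 and 13.90 in WT at 0 h and 12.84, 13.41, 13.47, 13.56 and 13.59 at 12 h. Among KO mice the values were 13.56, 13.73, 13.80, 13.88 and 13.93 at 0 h and 13.60, 13.65, 13.73, 13.88 and 13.89 at 12 h. The WT times did not overlap, with WT mouse 170 the lowest (12.84), and the KO times overlapped throughout. *Gstp1* fell by 0.40 in WT (SE 0.11, adjusted p = 0.0105), while the change in KO was -0.03 (adjusted p = 0.886). The difference between the genotypes was 0.37 and did not pass (limma adjusted p = 0.703). *Gstp3* read 8.52 to 8.92 in WT at 0 h and 8.87 to 9.32 at 12 h. It rose by 0.35 in WT (limma adjusted p = 0.049), a call kept in 6 of 20 runs that left out 1 mouse, and was at -0.10 in KO, and the difference between the genotypes did not pass (adjusted p = 0.673).

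Among the single-member and small families, *Gstz1*, the maleylacetoacetate isomerase of tyrosine breakdown, fell over both genotypes (-0.11, SE 0.04, limma adjusted p = 0.0339). It read 12.43 to 12.56 in WT and 12.36 to 12.51 in KO at 0 h, and 12.36 to 12.48 and 12.23 to 12.40 at 12 h, with overlap in both genotypes. It had the smallest spread of the 48 members, with an SD within groups of 0.06. The calls over both genotypes of *Gstz1* and *Gstp1* were each kept in 12 of 20 runs that left out 1 mouse. With centred arrays neither passed (-0.04 for *Gstz1* and -0.14 for *Gstp1*), nor after quantile normalization (-0.06 and -0.17). *Gstk1*, a mitochondrial and peroxisomal GST, read 11.66 to 11.96 over all mice and was at 0.05 (adjusted p = 0.358), but at 0.13 with centred arrays, where it passed in limma (adjusted p = 0.0269). The omega GSTs, which reduce dehydroascorbate, were at -0.09 (*Gsto1*, adjusted p = 0.152) and -0.14 (*Gsto2*, adjusted p = 0.147).

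The UGT2 enzymes glucuronidate steroids, bile acids and many drugs. Their 8 members lie in 1 run of neighbouring genes in the RefSeq order, followed after 2 other genes by *Sult1b1*, *Sult1d1* and *Sult1e1*. Neighbours in this run moved in opposite directions. *Ugt2b34* read 12.26, 12.41, 12.42, 12.42 and 12.57 in WT at 0 h and 12.58, 12.64, 12.74, 12.75 and 12.79 at 12 h. KO mice had 12.15, 12.44, 12.50, 12.51 and 12.53 at 0 h and 12.60, 12.70, 12.74, 12.75 and 12.76 at 12 h. Every 12 h mouse was above every 0 h mouse of its genotype. The rise was 0.28 in WT (SE 0.08, adjusted p = 0.00847) and 0.28 in KO (adjusted p = 0.0107), or 0.28 over both (limma adjusted p = 2.74e-04).

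*Ugt2b1*, its next neighbour, fell. It read 12.85, 12.90, 12.99, 13.05 and 13.16 in WT at 0 h and 12.54, 12.55, 12.65, 12.81 and 12.82 at 12 h, with no overlap. The KO values were 12.89, 12.94, 12.97, 13.09 and 13.11 at 0 h and 12.47, 12.64, 12.69, 12.81 and 12.94 at 12 h, and they overlapped at 1 mouse. *Ugt2b1* fell by 0.31 in WT (SE 0.09, adjusted p = 0.0111), by 0.29 in KO (adjusted p = 0.021) and by 0.30 over both (limma adjusted p = 5.59e-04). The KO call was lost without KO mouse 55 (-0.23), 76 (-0.27) or 77 (-0.27), and both calls within a genotype were lost with centred arrays (-0.23 in WT and -0.23 in KO).

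Both promoters are shown because the 2 genes are neighbours on the same strand and moved in opposite directions. Capitals in *Ugt2b1* mark a D-box (TTATGTAA or TTACGTAA, searched on both strands together with the reverse complement TTACATAA), the element of PAR bZIP factors, from 59 to 52 bases before the start. No motif of those searched matched in *Ugt2b34*. The windows, as above, are chr5:86926504-86926753 for *Ugt2b1* and chr5:86906938-86907187 for *Ugt2b34*, both on the - strand of GRCm38.p6.
Ugt2b1: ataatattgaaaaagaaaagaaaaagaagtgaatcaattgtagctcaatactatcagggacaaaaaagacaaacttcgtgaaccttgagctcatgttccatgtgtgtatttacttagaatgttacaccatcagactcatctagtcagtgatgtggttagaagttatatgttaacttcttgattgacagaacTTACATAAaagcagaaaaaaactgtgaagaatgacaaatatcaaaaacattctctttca
Ugt2b34: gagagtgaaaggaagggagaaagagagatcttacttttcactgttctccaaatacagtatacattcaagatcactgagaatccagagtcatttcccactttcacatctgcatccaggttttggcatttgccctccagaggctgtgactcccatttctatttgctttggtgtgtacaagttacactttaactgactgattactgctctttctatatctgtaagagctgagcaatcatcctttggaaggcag
A D-box was found in 1 of the 44 members (2.27%) and in 0.962% of all genes. The E-box CACGTG, which clock factors bind, was in 0 of 44 members against 6.05% of all genes. The nuclear receptor half-site AGGTCA was in 8 of 44 members (18.2%) against 13.8%, and in *Ugt2b5*, *Ugt2b36*, *Ugt2b37* and *Ugt2b38* it began 22, 25, 39 and 25 bases before the start.

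*Ugt2b5* read 12.27, 12.52, 12.60, 12.61 and 12.70 in WT at 0 h and 12.00, 12.05, 12.12, 12.33 and 12.33 at 12 h. KO mice had 12.28, 12.43, 12.56, 12.59 and 12.59 at 0 h and 12.22, 12.23, 12.31, 12.35 and 12.38 at 12 h. The groups overlapped in both genotypes. *Ugt2b5* fell in WT (-0.37, adjusted p = 0.00341) and over both (-0.28, limma adjusted p = 0.00113), and was at -0.19 in KO (adjusted p = 0.136). *Ugt2b36* fell over both (-0.13, adjusted p = 0.0387), a call kept in 11 of 20 runs that left out 1 mouse and lost with batch as a random block (-0.13), after quantile normalization (-0.08) and with centred arrays (-0.06). With centred arrays *Ugt2b35* passed over both (0.18, adjusted p = 0.0305). As deposited, *Ugt2b35* (0.11), *Ugt2b37* (-0.18), *Ugt2b38* (-0.32) and *Ugt2a3* (-0.02) did not pass. The UGT3 enzymes use other sugar donors than UDP-glucuronate. *Ugt3a2* fell in WT (-0.22, adjusted p = 0.0136) and over both (-0.19, adjusted p = 0.00175). The WT call was lost with centred arrays (-0.13) and without WT mice 80 and 170 (-0.21). In KO *Ugt3a2* was at -0.17 (adjusted p = 0.0683), and it passed without KO mouse 1 or 76 (-0.19 in each) and with a trended and robust prior (adjusted p = 0.0264). *Ugt3a1* was at -0.16 over both (adjusted p = 0.407).

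The SULTs showed the widest range of changes. *Sult1d1*, which sulfates catecholamines, read 10.46, 10.81, 11.51, 11.66 and 11.68 in WT at 0 h and 11.83, 11.85, 12.02, 12.05 and 12.26 at 12 h. The KO values were 11.59, 11.60, 11.62, 11.74 and 11.84 at 0 h and 11.50, 11.71, 11.80, 11.87 and 12.10 at 12 h. The WT times did not overlap, WT mice 80 (10.46) and 78 (10.81) were below the rest at 0 h, and the KO times overlapped. *Sult1d1* rose by 0.78 in WT (SE 0.18, adjusted p = 0.00254), was at 0.12 in KO (adjusted p = 0.698), and rose by 0.45 over both (limma adjusted p = 0.00741).

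*Sult1c2*, which sulfates small phenols, read 6.60, 7.28, 7.39, 7.50 and 7.59 in WT at 0 h and 7.65, 7.77, 7.88, 8.03 and 8.05 at 12 h, with no overlap. In KO the values of 6.22, 6.78, 7.18, 7.39 and 7.88 at 0 h overlapped those of 6.82, 7.22, 7.47, 7.89 and 8.24 at 12 h. *Sult1c2* passed only over both genotypes (0.52, SE 0.18, limma adjusted p = 0.0293), with 0.61 in WT (adjusted p = 0.088) and 0.44 in KO (adjusted p = 0.26). The call was lost without WT mouse 78 (0.44) or KO mouse 1 (0.48), 18 (0.47), 76 (0.41) or 166 (0.43).

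*Sult1e1* encodes the estrogen sulfotransferase. It read 4.11, 4.47, 4.82, 4.91 and 5.13 in WT at 0 h and 5.18, 6.27, 6.31, 7.39 and 8.10 at 12 h. *Sult1e1* in KO read 4.57, 4.77, 5.17, 6.83 and 8.16 at 0 h and 5.01, 5.17, 5.41, 5.80 and 6.16 at 12 h. The WT times did not overlap, with mice 170 (8.10) and 168 (7.39) the highest at 12 h. In KO, mice 1 (8.16) and 76 (6.83) stood above all other mice at 0 h. *Sult1e1* rose by 1.96 in WT (SE 0.55, limma adjusted p = 0.0106). Its mean log2 value was 5.69, and the filter on dim probe sets removed it, so that setting could not test the call. In KO the change was -0.39 (adjusted p = 0.671), and it was 0.18 without KO mouse 1. Over both genotypes it was 0.79 (adjusted p = 0.112), and it passed in limma without KO mouse 1 (1.07, adjusted p = 0.012) or WT mouse 111 (0.97, adjusted p = 0.0463). Without WT mice 80 and 170, the WT change was 1.63 and did not pass (adjusted p = 0.0588).

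*Sult5a1*, a SULT with no well-described substrate, read 8.88, 9.11, 9.21, 9.47 and 9.64 in KO at 0 h and 8.06, 8.10, 8.20, 8.22 and 9.06 at 12 h. In WT it read 8.25, 8.30, 8.60, 8.88 and 9.12 at 0 h and 7.66, 8.30, 8.34, 9.25 and 9.96 at 12 h. KO mouse 110 (9.06) was the only KO mouse at 12 h to reach the 0 h values, and WT mice 168 (9.96) and 170 (9.25) were the highest at 12 h. *Sult5a1* fell by 0.93 in KO (SE 0.30, limma adjusted p = 0.0327) and was at 0.07 in WT (adjusted p = 0.889). Over both genotypes it was at -0.43 (adjusted p = 0.116), and passed without WT mouse 168 (-0.59, adjusted p = 0.0119). The KO call was kept in 13 of 20 runs that left out 1 mouse, and was lost without KO mouse 1 (-0.84), 18 (-0.91), 55 (-0.90), 109 (-0.88), 143 (-0.95), 144 (-0.88) or 166 (-0.87).

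Of the other SULTs, *Sult2a8*, which sulfates bile acids, fell in KO (-0.33, adjusted p = 0.0414) and over both (-0.25, adjusted p = 0.0161), with -0.17 in WT (adjusted p = 0.272). The KO call was kept in 13 of 20 runs that left out 1 mouse, and with centred arrays both calls were lost (-0.27 in KO and -0.17 over both). *Sult4a1*, a brain SULT, fell in WT (-0.35, adjusted p = 0.0373) and over both (-0.23, limma adjusted p = 0.0406). These calls were kept in 13 and 7 of 20 runs that left out 1 mouse and were lost after quantile normalization and with centred arrays (-0.26 and -0.15 with centred arrays). The filter on dim probe sets also removed *Sult4a1*. The 10 SULTs not yet described did not pass in WT, in KO or over both. Among these were *Sult1a1* (-0.05), the main phenol SULT, *Sult1b1* (0.08), which sulfates thyroid hormones, and *Sult3a1* (0.24, adjusted p = 0.0633), which sulfates amines. With centred arrays *Sult3a1* (0.32, adjusted p = 0.021) and *Sult3a2* (0.25, adjusted p = 0.0247) passed over both in limma. Their mean log2 values were low, at 3.74 and 3.80. The mean shift of array medians was -0.073, and centring takes it out of probe sets at every level.

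**Figure D3:**
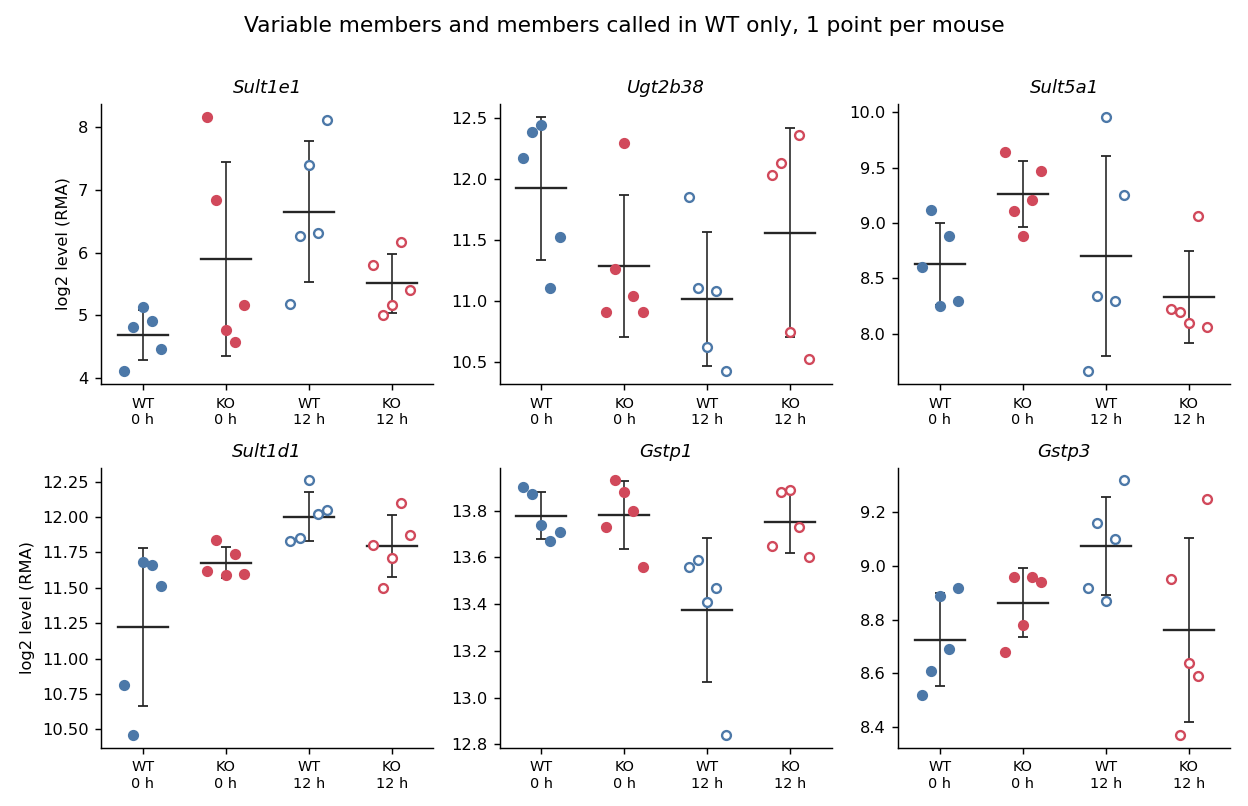
Log2 value (y axis) of *Sult1e1*, *Ugt2b38*, *Sult5a1*, *Sult1d1*, *Gstp1* and *Gstp3* in each mouse by group (x axis: WT and KO at 0 h and 12 h, 5 mice each); filled points are 0 h, open points 12 h, blue WT and red KO, the line is the group mean and the whiskers 1 SD. Single mice lie far from their group, such as KO mouse 1 for *Sult1e1* (8.16 at 0 h) and WT mouse 168 for *Sult5a1* (9.96 at 12 h).

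The time changes were then set side by side in the 2 genotypes. In WT, 15 members passed (31.2%, beside 27.8% of all probe sets): 5 rose (13.5% of all probe sets did) and 10 fell (14.3%). In KO, 11 passed (22.9%, beside 20.3%): 1 rose (10.6%) and 10 fell (9.69%). With centred arrays the splits were 8 up and 5 down in WT and 2 up and 7 down in KO. Without KO mouse 55 the KO count was 7, with *Mgst3*, *Sult2a8*, *Sult5a1* and *Ugt2b1* lost. The 7 members that passed in both genotypes, *Gsta3*, *Gstm2*, *Gstm5*, *Mgst1*, *Mgst3*, *Ugt2b1* and *Ugt2b34*, changed in the same direction in both. With centred arrays *Gstm2* no longer passed in WT, and *Mgst3* and *Ugt2b1* passed in neither genotype. The groups of the 2 times did not overlap for 11 members in WT, beside 17.5% of all probe sets, and for 7 in KO, beside 16.4%.

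A difference between the genotypes in the time change passed for 0 members and for 0 of all probe sets (0%) at an adjusted p under 0.05 in limma. At an unadjusted p under 0.05 the counts were 9 of 48 members and 6.84% of all probe sets. Members that passed in 1 genotype are therefore not shown to differ between genotypes. The difference for *Sult1e1* was -2.35 (SE 0.78, 95% interval -3.96 to -0.74, adjusted p = 0.604), the lowest value of all 25689 probe sets, and -1.79 without KO mouse 1. It was -0.68 for *Gstt3* (SE 0.26, adjusted p = 0.639), -0.66 for *Sult1d1* (SE 0.25, adjusted p = 0.639), -1.004 for *Sult5a1* (SE 0.43, adjusted p = 0.706) and 1.18 for *Ugt2b38* (SE 0.51, adjusted p = 0.706). *Ugt2b38* read 11.10, 11.52, 12.17, 12.38 and 12.44 in WT at 0 h and 10.42, 10.62, 11.08, 11.10 and 11.85 at 12 h. KO mice had 10.91, 10.91, 11.04, 11.26 and 12.29 at 0 h and 10.52, 10.74, 12.03, 12.13 and 12.36 at 12 h. All 4 groups of *Ugt2b38* overlapped. Its WT change of -0.91 did not pass (limma adjusted p = 0.0633). It passed with only the arrays compared (adjusted p = 0.0355), among the bright probe sets (adjusted p = 0.0481), and without KO mouse 77 (-0.91), WT mouse 146 (-1.11), WT mouse 111 (-1.12) or KO mouse 166 (-0.91).

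**Figure D4:**
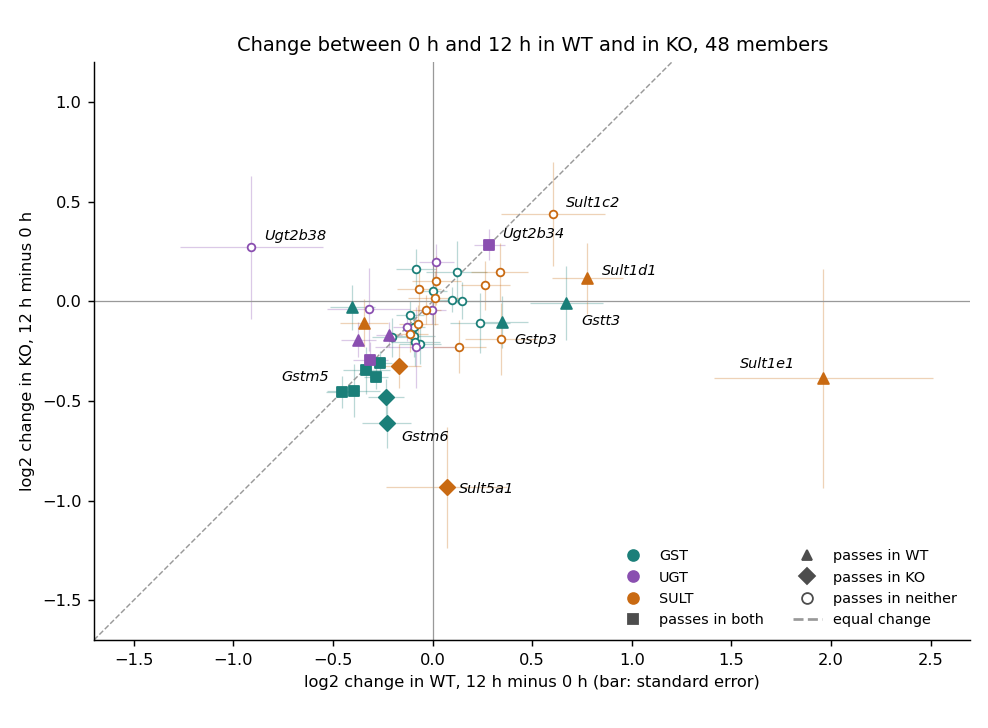
Log2 change from 0 h to 12 h in WT (x axis) against KO (y axis) for the 48 members; bars are 1 SE, squares passed in both genotypes, triangles in WT, diamonds in KO and open circles in neither (limma adjusted p under 0.05). The squares lie near the line of equal change, *Sult1e1* lies far to the right (1.96 in WT, -0.39 in KO) and *Sult5a1* far below it (0.07 in WT, -0.93 in KO).

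The genotypes were compared at each time. No member passed at 0 h (0% of all probe sets did), at 12 h (0.0234% of all probe sets) or averaged over both times (0.0117%) at an adjusted p under 0.05 in limma. At an unadjusted p under 0.05 there were 5 members at 0 h (4.47% of all probe sets), 10 at 12 h (12.5%) and 7 over both times (9.88%). The lowest adjusted p of a member was 0.987 at 0 h, 0.129 at 12 h and 0.148 over both. *Crem*, the targeted gene, did not pass either (limma adjusted p = 0.987, 0.19 and 0.135). A member that does not pass is therefore not shown to be unchanged. Over both times the KO minus WT estimate was negative for 17 of 22 GSTs (median -0.07) and for all 4 theta GSTs (median -0.23), beside a median of 0.00 for all probe sets. The estimate was negative for 12675 of all 25689 probe sets, for 4 of 10 UGTs and for 7 of 16 SULTs. Members share arrays, so their signs are not independent. The median was 0.01 for the UGTs, which turned to -0.02 with centred arrays, and 0.03 for the SULTs. The values below are of the 6 members with the largest estimates and are chosen for that size. The exact permutation p-values given for them are not adjusted for this choice or for the number of members and times.

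*Gsto1*, which reduces dehydroascorbate and arsenicals, had the lowest adjusted p. It read 10.99, 11.04, 11.08, 11.08 and 11.18 in WT and 10.62, 10.78, 10.80, 10.86 and 11.01 in KO at 0 h. At 12 h it read 10.88, 10.89, 10.98, 11.01 and 11.04 in WT and 10.66, 10.67, 10.78, 10.79 and 10.83 in KO. All KO mice at 12 h and 4 of 5 at 0 h were below all WT mice of the same time. The KO minus WT difference was -0.24 over both times (SE 0.05, 95% interval -0.34 to -0.13, limma adjusted p = 0.148). By two-sided exact permutation test it was -0.26 at 0 h (p = 0.0159) and -0.21 at 12 h (p = 0.00794). Within the 5 batches the differences were -0.20, -0.46, -0.10, -0.22 and -0.21, and without KO mouse 1 the difference over both times was -0.21. Batches 1 to 4 hold 1 or 2 arrays per genotype, and batch 5 is the whole 12 h comparison. The batch values therefore divide the same mice again and are not replications.

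The promoter of *Gsto1* is shown since CREM binds cAMP response elements. The window is chr19:47854723-47854972 on the + strand of GRCm38.p6, and the capitals mark a half-site of that element (TGACG, here as its reverse complement CGTCA) from 77 to 73 bases before the start.
Gsto1: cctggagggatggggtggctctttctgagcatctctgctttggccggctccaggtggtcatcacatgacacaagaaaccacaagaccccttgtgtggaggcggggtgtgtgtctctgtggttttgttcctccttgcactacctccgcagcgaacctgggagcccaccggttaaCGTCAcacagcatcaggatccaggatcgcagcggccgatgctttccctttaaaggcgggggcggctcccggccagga
The half-site was in 3 of 44 members (6.82%), taking the first listed start of each gene, and in 17.9% of all genes. Listed windows of *Gstk1*, *Gstz1* and *Sult2b1* also hold the half-site and are not shown. Of the other members with the largest genotype estimates, *Ugt3a1*, *Gstt3* and *Sult1c2* had no match, and *Gsta4* and *Gstt2* had no window. As above, a match does not show binding. The full element TGACGTCA, which contains the half-site, was in 0 of 44 members and in 1.62% of all genes.

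*Gstt3* had the lowest adjusted p at 12 h, where its KO minus WT difference was -0.72 (SE 0.18, 95% interval -1.11 to -0.34, limma adjusted p = 0.129). Its values are given above: all KO mice at 12 h were at or below 9.86 and all WT mice at or above 9.87 (two-sided exact permutation test, p = 0.00794). At 0 h the groups overlapped and the difference was -0.04 (exact p = 0.81). *Gstt2* at 0 h read 9.47, 9.69, 9.78 and 9.91 in 4 WT mice, with the fifth above them, and 9.17, 9.31, 9.51, 9.67 and 9.73 in KO mice, and it read 9.54 to 10.37 in WT and 9.28 to 9.90 in KO at 12 h. The *Gstt2* groups overlapped at both times, and the difference was -0.29 at 0 h (exact p = 0.0794) and -0.27 at 12 h (exact p = 0.222). *Gstt1*, in the same run of genes, read 11.39, 11.47, 11.53, 11.59 and 11.71 in WT at 12 h and 11.17, 11.24, 11.27, 11.37 and 11.38 in KO. The *Gstt1* groups did not overlap at 12 h, with a difference of -0.25 (limma adjusted p = 0.257). *Gstp1* was higher in KO at 12 h, also with no overlap (0.38, SE 0.11, limma adjusted p = 0.175). The genotypes thus did not overlap for 4 members at 12 h (*Gstp1*, *Gstt1*, *Gstt3* and *Gsto1*), beside 2.42% of all probe sets, and for 0 members at 0 h, beside 0.728%.

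*Gsta4* read 10.83, 10.92, 11.10, 11.18 and 11.19 in WT and 10.45, 10.82, 10.86, 10.94 and 11.02 in KO at 0 h. At 12 h it read 10.82, 10.88, 11.00, 11.08 and 11.12 in WT and 10.39, 10.58, 10.61, 10.62 and 10.84 in KO, with 4 of 5 KO mice below all WT mice. The difference was -0.30 over both times (SE 0.07, limma adjusted p = 0.194), -0.22 at 0 h (exact permutation test, two-sided, p = 0.0952) and -0.37 at 12 h (exact p = 0.0159). Within batches, which divide the same mice again, it was -0.26, -0.38, -0.28, 0.02 and -0.37, and at 0 h it was -0.13 without KO mouse 1.

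*Ugt3a1* read 11.32, 11.35, 11.58, 11.61 and 11.93 in WT and 10.40, 11.23, 11.24, 11.55 and 11.63 in KO at 0 h. At 12 h it read 11.31, 11.38, 11.43, 11.59 and 11.65 in WT and 10.29, 10.93, 10.97, 11.14 and 11.58 in KO. KO mouse 1 (10.40) was the lowest at 0 h, and 4 of 5 KO mice at 12 h were below all WT mice. The difference over both times was -0.42 (SE 0.14, limma adjusted p = 0.369) and -0.32 without KO mouse 1. It was -0.35 at 0 h (exact permutation test, two-sided, p = 0.159), or -0.14 without that mouse, and -0.49 at 12 h (exact p = 0.0397). *Sult1c2* was at -0.18 at 0 h (exact p = 0.603) and -0.35 at 12 h (exact p = 0.246), and its groups overlapped at both times.

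**Figure D5:**
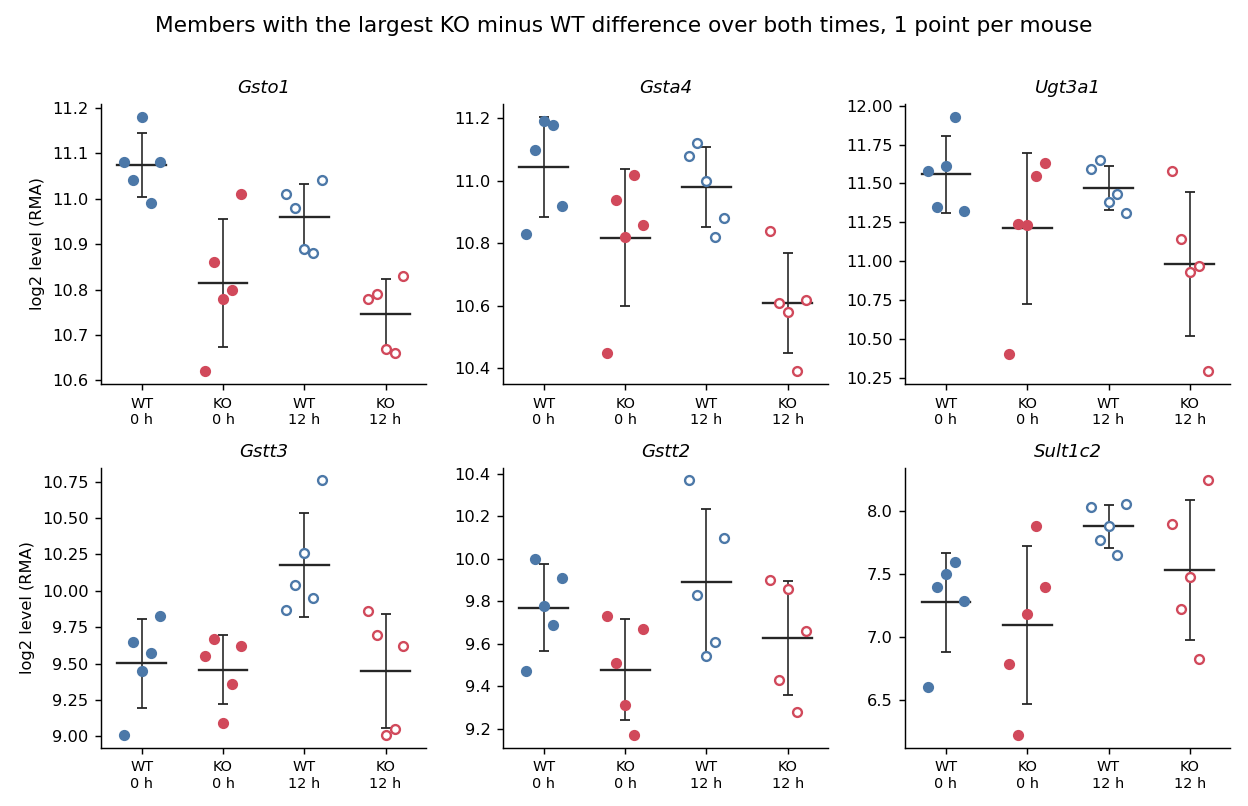
Log2 value (y axis) of *Gsto1*, *Gsta4*, *Ugt3a1*, *Gstt3*, *Gstt2* and *Sult1c2*, the members with the largest KO minus WT estimates over both times, in each mouse by group (x axis: WT and KO at 0 h and 12 h, 5 mice each); filled points are 0 h, open points 12 h, blue WT and red KO, the line is the group mean and the whiskers 1 SD. At 12 h all KO points of *Gsto1* and *Gstt3* lie below all WT points, and no difference passed after adjustment over all probe sets.

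The spread between mice of a group differed among members. The pooled SD within groups was 0.06 to 1.00, with a median of 0.18. It was above 0.4 for *Sult1e1* (1.00), *Ugt2b38* (0.66), *Sult5a1* (0.55) and *Sult1c2* (0.47). Pairs of members were compared by the correlation of their deviations from the 4 group means over 20 mice, which share arrays and scale, and no test was made. The pairs most alike were *Sult2a8* with *Sult1b1* (Pearson's r = 0.76, Spearman's rho = 0.81, r = 0.67 without the 2 most distant mice) and *Gstt3* with its neighbour *Gstt1* (0.75, 0.77 and 0.71). Next were *Sult1b1* with *Gstz1* (0.73, 0.60 and 0.55), *Sult2b1* with *Gstt1* (0.73, 0.58 and 0.59) and *Gstp3* with *Gstm7* (0.73, 0.61 and 0.52). The median r was 0.29 over 28 pairs in UGT2, 0.28 over 6 pairs in the theta and 0.23 over 21 pairs in the mu GSTs. It was 0.05 over 120 pairs of SULTs and -0.01 over 732 pairs of different classes.

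Genes around the conjugating enzymes were read from lists, for time over both genotypes. Of all probe sets 39.3% passed in that comparison, with 18.1% rising and 21.2% falling. Of 11 genes that supply UDP-glucuronate and PAPS, 3 rose and 1 fell (median 0.04). *Papss2*, which makes PAPS, rose by 0.41, and *Ugdh*, which makes UDP-glucuronate, fell by 0.16. Of 14 genes of glutathione synthesis and recycling 4 rose and 5 fell (median -0.06), with *Oplah* at 0.92, *Ggct* at -0.56 and *Gclc*, the catalytic subunit of glutamate-cysteine ligase, at -0.45. Of 13 other conjugating enzymes 1 rose and 5 fell (median -0.03), with *Nat8* at -0.63, *Acsm5* at 0.54 and *Baat*, which conjugates bile acids with taurine or glycine, at -0.44. Of 11 genes of export and hydrolysis of conjugates 6 rose and 2 fell (median 0.22), with *Abcb1a* at 0.93 and *Abcc6* at 0.75.

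The regulators moved mostly upward at 12 h, while 18.1% of all probe sets rose and 21.2% fell. Of 10 xenobiotic sensors 8 rose and 0 fell (median 0.32), with *Nr1i3* (CAR) at 0.76, *Rxra* at 0.55 and *Nr1i2* (PXR) at 0.53. Of 16 PAR bZIP and clock genes 12 rose and 4 fell (median 1.23, range -2.35 to 2.89), with *Dbp* at 2.89 and *Ciart* at 2.81 among those that rose. Of 12 genes known as male-predominant in liver 0 rose and 5 fell (41.7% passed, median -0.19), with *Elovl3* at -2.63 and *Hsd3b5* at -1.16. Of 11 female-predominant genes 5 rose and 0 fell (45.5% passed, median 0.19), with *Fmo2* at 1.81 and *Trim24* at 1.00. The shares that passed in the male-predominant and female-predominant lists are near the 39.3% of all probe sets. For genotype, 0 genes of any of these lists passed at either time.

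Of the other cell type lists, 0 of 5 cholangiocyte genes rose and 1 fell (*Sox9*, -0.68), while 18.1% of all probe sets rose and 21.2% fell. In the sinusoidal endothelial list 2 of 6 rose, in the stellate list 2 of 6 rose and 1 fell, and of 4 lymphocyte genes none passed. Of 3 erythroid genes 1 fell, and of 3 exocrine pancreas genes 1 fell (*Cpa1*), with a per-mouse level of 6.52 to 6.92 and 6.61 to 6.87 at 0 h against 6.33 to 6.62 and 6.46 to 6.71 at 12 h in WT and KO. Their part in the members' changes was not tested.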

How the data were processed

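RNA of 20 whole livers, 1 per mouse, was hybridised to Affymetrix GeneChip Mouse Gene 1.0 ST arrays. The authors deposited log2 values per probe set after RMA, which corrects background, normalizes between arrays and summarises probes. The version of RMA, and if the liver arrays were normalized apart from others, are not given in the sources used here. The methods describe RMA of core meta-probe sets with antigenomic background for testis arrays. Differences between arrays are thus already reduced, depth does not apply, and how far a probe stood above background is unknown. Some low levels are set against the array medians, and no level of a probe set is set against another's. The table held 35557 probe sets, of which 9868 had no value on any array and 25689 were tested without a filter: 20777 of 1 gene, 232 of several genes and 4680 without a gene. Names came from the platform's annotation, and 48 of 48 members matched RefSeq by gene identifier.

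Groups follow the genotype and the time that each label gives. The 4 group means were fitted to all 20 arrays with limma 3.58.1 (lmFit and eBayes) in R 4.3.3, and p-values were Benjamini-Hochberg adjusted over all 25689 probe sets at 0.05. Contrasts were 12 h minus 0 h in WT, in KO and over both, KO minus WT for each time and their average, and the difference between the time changes. The fit was tested on simulated data. Single members and *Crem* were also compared over all 252 regroupings of 5 against 5 mice (exact permutation test, two-sided). Tables and plots were made in Python 3.11.15 with pandas 2.3.3 and matplotlib 3.10.9. The labels call each array a separate mouse, so p-values measure the spread between mice.

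The members and lists were chosen with earlier results of these data known. Values by mouse are given for up to 12 members with the largest change among those passing over both genotypes, up to 4 that passed in 1 genotype with the largest difference, the 6 with the largest genotype estimate, and the member with the largest change in each family left (*Gstp1*, *Gstk1* and *Gstz1*). *Gstp3*, *Gstt1*, *Ugt2b5* and *Ugt2b38* were added by mouse after their values were seen, and from other lists up to 3 passing members are named. Alternatives were batch as a block, only the arrays compared, a filter on dim probe sets, quantile normalization, centred arrays and array weights. Others were a trended and robust prior, leaving out each mouse, and leaving out WT mice 80 and 170 together. Promoter windows are the 250 bases before the RefSeq start in GRCm38.p6, found for 44 of 48 members.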

Additional observations from a re-analysis of the deposited data

Results flagged for a closer look

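In 11 groups, 1 mouse lay far from the other 4, by Dixon's ratio of the gap to the whole range (critical value 0.71 for 5 mice). The ratio was computed for 216 groups, which are the 48 members and 6 family or class means in each of the 4 groups, and chance alone gives about 10.8. Among the GSTs, *Gstm3* read 11.83 in WT mouse 170 at 12 h against 10.96 to 11.17 in the others, and 10.76 in KO mouse 110 at 12 h against 11.15 to 11.27. *Gstm5* read 9.08 in WT mouse 147 at 0 h against 8.76 to 8.8. *Gstp1* read 12.84 in WT mouse 170 at 12 h against 13.41 to 13.59, and *Gstt4* read 5.71 in KO mouse 143 at 0 h against 6.18 to 6.28. Among the UGTs, *Ugt2b34* read 12.15 in KO mouse 143 at 0 h against 12.44 to 12.53. *Ugt2b36* read 13.06 in WT mouse 146 at 0 h against 12.77 to 12.84, and *Ugt2b38* read 12.29 in KO mouse 77 at 0 h against 10.91 to 11.26. Among the SULTs, *Sult1b1* read 8.11 in KO mouse 55 at 12 h against 8.99 to 9.27. *Sult4a1* read 6.13 in WT mouse 145 at 0 h against 6.66 to 6.71, with the highest ratio (0.912), and *Sult5a1* read 9.06 in KO mouse 110 at 12 h against 8.06 to 8.22.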

How the results depend on the processing

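No paired analysis was possible because mice of different groups carry different numbers. The count of members that passed in WT was 15 and fell to 8 without WT mice 80 and 170 together, with *Gstp1*, *Gstp3*, *Mgst3*, *Sult1e1*, *Sult4a1*, *Ugt2b1* and *Ugt3a2* lost. Leaving out 1 mouse at a time gave 12 to 17 in WT, 7 (without KO mouse 55) to 11 in KO and 15 to 21 over both, and 0 for every genotype comparison and for the difference between the time changes. With batch as a random block (correlation 0.0286) the counts were 13, 9 and 15, and after quantile normalization 14, 9 and 15. With centred arrays the splits were 8 up and 5 down in WT (5 and 10 as deposited), 2 and 7 in KO (1 and 10) and 8 and 10 over both (4 and 16). Without KO mouse 1 the counts were 14, 11 and 19, with *Gstp3* lost in WT, *Mgst3* and *Sult5a1* lost and *Gsta4* and *Ugt3a2* gained in KO, and *Gstt3*, *Sult1c2* and *Sult4a1* lost and *Gsta4* and *Sult1e1* gained over both. Each member's gene had 1 probe set with values, and a fit of the whole array with 1 probe set per gene was not run. Of the other values recomputed, 1952 kept direction and side of the threshold, 91 were no longer past it, 10 newly were and 15 changed sign. Leaving out 1 mouse, the change in KO of *Gstt3* was -0.113 (without KO mouse 18) to 0.1 (KO mouse 109) and 0.05 with centred arrays. Its genotype estimate at 0 h was -0.166 to 0.05, and 0.004 with batch as a fixed block, and that of *Sult1c2* was -0.379 to 0.037. The change of *Sult1e1* in KO was -0.72 to 0.177 (without KO mouse 1) and that of *Sult5a1* in WT -0.244 (without WT mouse 168) to 0.332. None of these 5 was past the threshold, and the cause was not tested. The number of arrays limits the precision.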
